A study of Homo sapiens with 12 samples.

Results

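Genes that neutrophil precursors switch on late in their maturation were followed in RNA sequencing of 2 human acute myeloid leukaemia (AML) cell lines. The 7 genes named were MMP9, PADI4, CSF3R, SLPI, FUT4, MMP8 and LCN2. Of these, 5 had a row among the 13881 genes of the deposited table and all 5 passed the filter on low values, which 13353 genes passed. MMP8, a neutrophil collagenase, and LCN2, the iron-binding lipocalin of specific granules, were not analysed here. The genes were chosen by name with their values in these libraries already known, from the contrast of ASLAN003 with DMSO in each line. Their treatment contrasts below are therefore descriptions without a test, and a count of passed genes among them supports nothing.

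The groups were KG-1 with ASLAN003, KG-1 with DMSO, MOLM-14 with ASLAN003 and MOLM-14 with DMSO, with 3 libraries each and 96 h of exposure in all. ASLAN003 inhibits dihydroorotate dehydrogenase, an enzyme of pyrimidine synthesis, and DMSO is its solvent. KG-1 and MOLM-14 are established lines, each grown from the leukaemia of 1 patient, and both were kept in RPMI medium with serum. MOLM-14 carries an internal tandem duplication of FLT3 and a fusion of KMT2A with MLLT3. No source used here states the ASLAN003 dose.

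Neutrophils mature from myeloblasts through promyelocytes, myelocytes and band cells, and they fill a different kind of granule at each step. Serine proteases such as neutrophil elastase go into azurophil granules in promyelocytes. Specific granules, gelatinase granules and secretory vesicles with surface receptors follow in that order, under factors that include C/EBP epsilon and PU.1. Granulocyte colony-stimulating factor (G-CSF), acting on the receptor that CSF3R encodes, drives this course. Several of the genes, MMP9 among them, are also expressed by monocytes and macrophages.

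Values are FPKM, fragments scaled to transcript length and library size, and differences are on the log2(FPKM + 1) scale with the standard error (SE) of a limma fit over all tested genes. A gene passed at a Benjamini-Hochberg adjusted p under 0.05, and rose or fell if it passed. The fit takes 1 spread per gene from all 4 groups. The median standard deviation over genes (log2) was 0.27 in MOLM-14 ASLAN003, 0.18 in MOLM-14 DMSO, 0.16 in KG-1 ASLAN003 and 0.13 in KG-1 DMSO. An SE may therefore be too small for MOLM-14 and too large for KG-1. The depth, estimated from steps in the low values, was 17900000 to 18700000 fragments per library. In the first 2 principal components of the log2 values (61.8% and 16.3% of the variance), MOLM-14 ASLAN003 replicate 1 stood apart from its group. It scored 36.2 on the second component, against 14.6 and 9.37 in the other 2 libraries. It held the highest value of its group for 5 of 5 late maturation genes and for 40.3% of all tested genes. In KG-1 ASLAN003 replicate 3, mitochondrial genes made up 3.17% of the listed FPKM, against 4.95% and 5.23% in its group. CD34, a surface marker for which KG-1 is known, reached no more than 0.17 FPKM anywhere, which goes against the label KG-1. FGFR1, which KG-1 is known to carry in a gene fusion, averaged 3.95 FPKM in KG-1 ASLAN003 and 4.24 FPKM in KG-1 DMSO, and 49.8 FPKM in MOLM-14 ASLAN003 and 58.2 FPKM in MOLM-14 DMSO. HOXA9, a gene that KMT2A fusions are known to drive, averaged 11.5 and 8.30 FPKM in the same KG-1 groups and 69.6 and 69.2 FPKM in the MOLM-14 groups. MEIS1, its partner, averaged 9.56 and 6.11 FPKM in KG-1 and 17.6 and 20.1 FPKM in MOLM-14. KG-1 here means the libraries so labelled, and their identity was not tested.

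Scaling matters for the count of risers. In the table as deposited, 2585 genes rose and 1909 fell in KG-1, and 1294 rose and 444 fell in MOLM-14. With the median of each library set equal, 1994 rose and 2671 fell in KG-1, and 728 rose and 921 fell in MOLM-14. Quantile normalization gave 2184 higher and 2557 lower genes in KG-1, and 752 and 566 in MOLM-14. Rescaling without mitochondrial, small RNA and ribosomal RNA genes gave 3515 higher and 1322 lower genes in KG-1, and 2162 and 300 in MOLM-14. The median change over all tested genes was 0.05 (log2) in KG-1 and 0.08 in MOLM-14 as deposited, -0.07 in each line with equal medians, and 0.18 and 0.19 after the rescaling. The counts also depend on the shared spread. With each line fitted alone, 3458 rose and 2650 fell in KG-1, and 280 rose and 66 fell in MOLM-14. The shares over all tested genes given below, such as 9.69% and 3.33% in MOLM-14, are those of the shared fit.

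MMP9 (ENSG00000100985.7, GRCh38 chr20:46008908-46016561, plus strand) encodes gelatinase B, the protease that gives gelatinase granules their name. It read 464, 373 and 764 FPKM in the KG-1 ASLAN003 libraries, against 27.8, 23.8 and 14.9 FPKM in KG-1 DMSO. It read 3.88, 1.64 and 1.21 FPKM in MOLM-14 ASLAN003, against 0.70, 0.38 and 0.87 FPKM in MOLM-14 DMSO. The 4 groups did not overlap, and their order was KG-1 ASLAN003, KG-1 DMSO, MOLM-14 ASLAN003 and MOLM-14 DMSO. In KG-1 the mean was 534 ± 204 FPKM with ASLAN003 and 22.2 ± 6.58 FPKM with DMSO (SD, n = 3 each), a ratio of 24.1 and a log2 difference of 4.50 (SE 0.32). That was the 5th largest of the 13353 tested genes. In MOLM-14 the log2 difference was 0.90 (SE 0.32) and did not pass. It passed with MOLM-14 ASLAN003 replicate 3 left out (1.13), and was 0.56 without replicate 1. The MOLM-14 DMSO values rest on about 28, 15 and 34 fragments.

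PADI4 (ENSG00000159339.13, GRCh38 chr1:17308195-17364004, plus strand) encodes a nuclear peptidylarginine deiminase, which turns histone arginine into citrulline and takes part in the release of neutrophil extracellular traps. PADI4 read 195, 177 and 280.0 FPKM in KG-1 ASLAN003, against 4.97, 9.45 and 7.29 FPKM in KG-1 DMSO. In MOLM-14 it read 4.01, 0.65 and 2.04 FPKM with ASLAN003, against 0.42, 1.12 and 1.60 FPKM with DMSO. All KG-1 ASLAN003 libraries were far above KG-1 DMSO, and the MOLM-14 groups overlapped. The KG-1 means were 217 ± 55.2 FPKM with ASLAN003 and 7.24 ± 2.24 FPKM with DMSO (SD, n = 3 each), a ratio of 30.0 and a log2 difference of 4.73 (SE 0.36). The MOLM-14 difference was 0.56 (SE 0.36) and did not pass, and it was 0.17 without MOLM-14 ASLAN003 replicate 1. The 6 MOLM-14 values rest on about 16 to 152 fragments each.

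PADI4 had the largest difference in change between the lines of the 5 genes, while the changes of CSF3R and FUT4 differed by less than their SE, with no order between those 2. The 250 bases before the annotated starts of PADI4 and CSF3R are shown as those of a gene with and a gene without a called difference. The sequences are from RefSeq (GRCh38.p14), 5′ to 3′ on the strand of the gene, PADI4 at chr1:17307947-17308196 (plus) and CSF3R at chr1:36483315-36483564 (minus). Capitals mark the matches to 3 motifs that were searched on both strands: TTNNGCAA for C/EBP factors, GAGGAAGT for PU.1 and TGANTCA for AP-1.
PADI4: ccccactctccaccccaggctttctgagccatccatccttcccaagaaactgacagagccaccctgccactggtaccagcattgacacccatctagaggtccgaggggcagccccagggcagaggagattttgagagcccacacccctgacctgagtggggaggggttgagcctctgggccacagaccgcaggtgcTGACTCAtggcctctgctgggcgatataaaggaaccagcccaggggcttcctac
CSF3R: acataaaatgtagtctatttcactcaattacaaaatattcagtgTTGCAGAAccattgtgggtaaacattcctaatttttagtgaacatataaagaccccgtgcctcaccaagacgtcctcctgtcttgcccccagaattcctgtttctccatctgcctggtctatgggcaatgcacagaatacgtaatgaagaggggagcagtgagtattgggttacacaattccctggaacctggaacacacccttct
PADI4 held 1 AP-1 match, at -54 to -48 from the start, and CSF3R held 1 C/EBP match on the reverse strand, at -206 to -199. Of all 35116 windows of this length, 6.57% held the AP-1 motif, 9.05% the C/EBP motif and 2.17% the PU.1 motif. A second CSF3R window and the FUT4 window held none of these letters. A match describes letters only, and binding was not measured.

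SLPI (ENSG00000124107.5, GRCh38 chr20:45252239-45254564, minus strand) encodes secretory leukocyte protease inhibitor, which blocks neutrophil elastase and cathepsin G. SLPI read 132, 153 and 98.6 FPKM in KG-1 ASLAN003, against 32.5, 27.2 and 39.0 FPKM in KG-1 DMSO. It read 72.1, 55.9 and 45.6 FPKM in MOLM-14 ASLAN003, against 9.89, 8.16 and 6.49 FPKM in MOLM-14 DMSO. Its 4 groups did not overlap, and MOLM-14 ASLAN003 lay above KG-1 DMSO. The KG-1 means were 128 ± 27.4 FPKM with ASLAN003 and 32.9 ± 5.91 FPKM with DMSO, and the MOLM-14 means 57.8 ± 13.4 FPKM with ASLAN003 and 8.18 ± 1.70 FPKM with DMSO (SD, n = 3 each). The ratio of means was 3.88 in KG-1, with a log2 difference of 1.92 (SE 0.21), and 7.07 in MOLM-14, with 2.67 (SE 0.21). SLPI was the late maturation gene that rose most in MOLM-14, and its log2 difference there was 2.50 without MOLM-14 ASLAN003 replicate 1.

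CSF3R (ENSG00000119535.17, GRCh38 chr1:36466043-36483278, minus strand) read 92.2, 87.6 and 115 FPKM in KG-1 ASLAN003, against 51.7, 51.4 and 60.3 FPKM in KG-1 DMSO. In MOLM-14 it read 119, 64.2 and 66.4 FPKM with ASLAN003, against 49.7, 54.9 and 38.0 FPKM with DMSO. Every ASLAN003 library lay above every DMSO library of its line, while the 2 ASLAN003 groups overlapped each other, as did the 2 DMSO groups. The KG-1 means were 98.4 ± 14.8 FPKM with ASLAN003 and 54.5 ± 5.08 FPKM with DMSO, and the MOLM-14 means 83.1 ± 30.9 FPKM with ASLAN003 and 47.5 ± 8.65 FPKM with DMSO (SD, n = 3 each). The log2 difference was 0.83 (SE 0.21) in KG-1 and 0.75 (SE 0.21) in MOLM-14, and both passed. That SE is shared by the lines, but the spread was not alike. The SD of the log2 values was 0.49 in MOLM-14 ASLAN003 and 0.27 in MOLM-14 DMSO, against 0.21 in KG-1 ASLAN003 and 0.13 in KG-1 DMSO. The MOLM-14 pass was lost when 1 of 7 libraries was left out: MOLM-14 ASLAN003 replicate 1 (0.47), MOLM-14 DMSO replicate 1 (0.79) or 3 (0.60), KG-1 ASLAN003 replicate 1 or any KG-1 DMSO library (0.75 each). It was also lost with equal medians (0.60), quantile normalization (0.67), the line fitted alone, or no trend and no robust estimation.

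FUT4 (ENSG00000196371.3, GRCh38 chr11:94543840-94549898, plus strand) encodes a fucosyltransferase that makes the Lewis x structure known as CD15 on granulocytes. FUT4 read 29.3, 35.8 and 34.3 FPKM in KG-1 ASLAN003, against 22.3, 24.3 and 31.1 FPKM in KG-1 DMSO. It read 35.6, 28.2 and 29.5 FPKM in MOLM-14 ASLAN003, against 26.9, 26.0 and 23.9 FPKM in MOLM-14 DMSO. The KG-1 groups overlapped by 1 library and the MOLM-14 groups did not overlap. The log2 difference was 0.35 (SE 0.14) in KG-1 and 0.26 (SE 0.14) in MOLM-14, and neither passed. The KG-1 difference passed without KG-1 DMSO replicate 3 (0.49), without MOLM-14 ASLAN003 replicate 1 (0.35), and after the rescaling (0.50). FUT4 shares its annotated start and strand with PIWIL4, which reached 17.7 FPKM, so the split of fragments between them is uncertain. It also overlaps the antisense gene AP000943.3, MMP9 overlaps the antisense gene SLC12A5-AS1, and no source used here states whether the counting used strand.

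**Figure D1:**
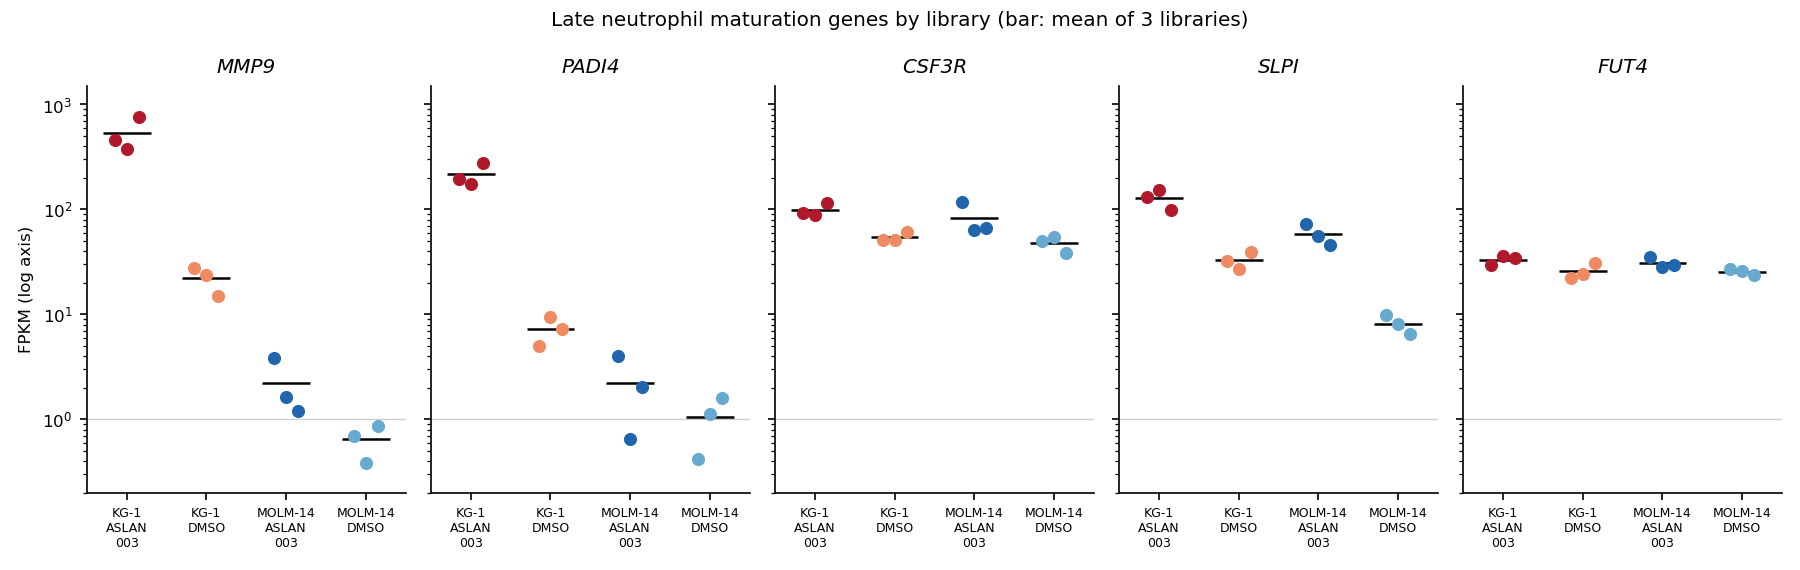
FPKM of each gene on a log axis, 1 point per library and a bar at the mean of 3 libraries, with ASLAN003 left of DMSO within each line. MMP9 and PADI4 spread over more than 2 decades between groups, from 0.38 to 764 FPKM for MMP9, while FUT4 stays between 22.3 and 35.8 FPKM.

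In KG-1, 4 of the 5 genes passed, all higher with ASLAN003, where 19.4% of all tested genes were called higher and 14.3% lower. In MOLM-14, 2 of the 5 passed, both higher, where 9.69% of tested genes were called higher and 3.33% lower. Every ASLAN003 library lay above every DMSO library for 4 of 5 genes in KG-1 (FUT4 overlapped) and 4 of 5 in MOLM-14 (PADI4 overlapped), against 31.4% and 17.7% of tested genes. These contrasts were known when the genes were chosen, so nothing is read from the counts.

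**Figure D2:**
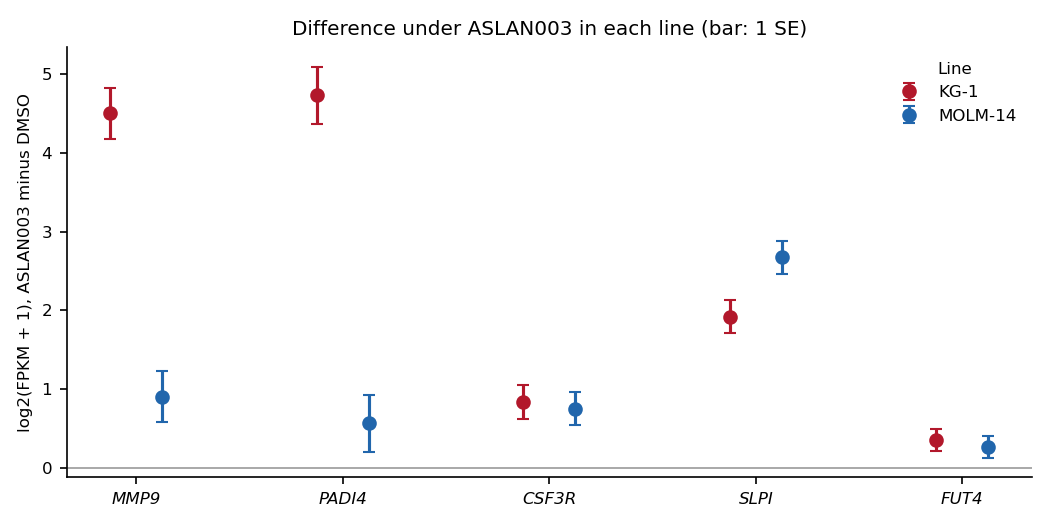
Difference between ASLAN003 and DMSO on the log2(FPKM + 1) scale for each gene, with 1 SE, KG-1 left of MOLM-14. PADI4 (4.73 in KG-1, 0.56 in MOLM-14) and MMP9 (4.50, 0.90) stand apart between the lines, and CSF3R and FUT4 lie close together. The plotted difference of SLPI is larger in MOLM-14 (1.92, 2.67), but the test between the lines did not pass.

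The change in KG-1 minus the change in MOLM-14 was 3.61 (SE 0.46) for MMP9 and 4.17 (SE 0.52) for PADI4, and both passed. Among all tested genes, 5.05% passed with the larger change in KG-1 and 4.89% with the larger in MOLM-14. The difference was -0.76 (SE 0.29) for SLPI, 0.08 (SE 0.30) for CSF3R and 0.09 (SE 0.20) for FUT4, none of which passed. Their 95% intervals ran from -1.39 to -0.12 for SLPI, -0.57 to 0.74 for CSF3R and -0.34 to 0.52 for FUT4, so like change in the 2 lines is not shown.

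The lines also differed without drug. This contrast was not used to choose the genes, though it shares the DMSO libraries with those that were. In DMSO, MMP9 was higher in KG-1 than in MOLM-14 by 3.78 on the log2 scale (SE 0.32, limma adjusted p = 9.15e-07), SLPI by 1.89 (SE 0.21, adjusted p = 9.34e-06) and PADI4 by 2.02 (SE 0.36, adjusted p = 0.000557). All KG-1 DMSO libraries lay above all MOLM-14 DMSO libraries for these 3 genes. CSF3R (0.20, SE 0.21, adjusted p = 0.452) and FUT4 (0.003, SE 0.14, adjusted p = 0.989) overlapped between the lines and did not pass, and the sign for FUT4 turned with equal medians (-0.05) or quantile normalization (-0.01). So 3 of 5 passed, all higher in KG-1, where 27.1% of tested genes were called higher in KG-1 and 22.1% lower.

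Levels of the genes that act with them, in the same bulk samples, were read next. These genes and the lists below were chosen with earlier results of these data known, so their contrasts and counts are descriptions. In bulk RNA, more cells of a type and more RNA per cell cannot be told apart, here and in every result. TIMP1, which encodes the main inhibitor of gelatinase B, read 256 ± 39.5 FPKM in KG-1 ASLAN003 and 149 ± 12.3 FPKM in KG-1 DMSO (SD, n = 3 each; log2 difference 0.76, SE 0.13, limma adjusted p = 0.000824). In MOLM-14 it read 105 ± 19.0 FPKM with ASLAN003 and 75.4 ± 2.78 FPKM with DMSO (0.46, SE 0.13, adjusted p = 0.0419). The TIMP1 pass in MOLM-14 was lost without any of 8 libraries, all but KG-1 ASLAN003 replicates 2 and 3 and MOLM-14 ASLAN003 replicates 2 and 3 (log2 difference 0.31 to 0.48), and with equal medians (0.31), quantile normalization (0.40), the line fitted alone or no trend and no robust estimation. MMP9 FPKM over TIMP1 FPKM was 2.04 ± 0.46 in KG-1 ASLAN003 and 0.147 ± 0.033 in KG-1 DMSO, and 0.0203 ± 0.0092 in MOLM-14 ASLAN003 and 0.00869 ± 0.0036 in MOLM-14 DMSO. MMP9 messenger exceeded that of TIMP1 per length in KG-1 ASLAN003 alone of the 4 groups.

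SLPI moved against its target proteases in KG-1. ELANE, neutrophil elastase, read 962 ± 178 FPKM in KG-1 ASLAN003 and 3031 ± 336 FPKM in KG-1 DMSO, and 606 ± 20.2 FPKM in MOLM-14 ASLAN003 and 1115 ± 95.9 FPKM in MOLM-14 DMSO (SD, n = 3 each). It fell by 1.66 on the log2 scale in KG-1 (SE 0.12, limma adjusted p = 1.5e-06) and by 0.88 in MOLM-14 (SE 0.12, adjusted p = 0.00109). CTSG, cathepsin G, fell by 1.31 in KG-1 (SE 0.31, adjusted p = 0.00672, but 0.0577 with the line fitted alone), and PRTN3, the related proteinase 3, which SLPI inhibits poorly, fell by 0.97 (SE 0.21, adjusted p = 0.00363). In MOLM-14, CTSG (0.08) and PRTN3 (-0.08) did not pass, with adjusted p of 0.918 and 0.854. SLPI over the summed FPKM of the 3 proteases was 0.0444, 0.0507 and 0.0187 in KG-1 ASLAN003, against 0.00406, 0.00382 and 0.00397 in KG-1 DMSO. It was 0.0365, 0.0257 and 0.0228 in MOLM-14 ASLAN003, against 0.00366, 0.00302 and 0.00278 in MOLM-14 DMSO. Treated libraries of both lines lay above all DMSO libraries. KG-1 ASLAN003 replicate 3 had the lowest SLPI value and ratio of its group, and its highest ELANE (1168 FPKM), CTSG (72.2 FPKM) and PRTN3 (4030 FPKM). Replicates 1 and 2 read 25.3 and 24.4 FPKM for CTSG and 2093 and 2134 FPKM for PRTN3. In KG-1 DMSO, PRTN3 read 4897, 4326 and 6377 FPKM. PRTN3 exceeded ELANE and CTSG together in each KG-1 library, so the ratio there is mostly to a protease that SLPI inhibits poorly.

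PADI2, the other deiminase with a row, rose in KG-1 by 1.56 (SE 0.26, limma adjusted p = 0.000508), to 35.4 ± 4.74 FPKM with ASLAN003, against 11.3 ± 1.37 FPKM with DMSO (SD, n = 3 each). PADI4 over PADI2 was 6.08 ± 0.72 in KG-1 ASLAN003 and 0.649 ± 0.21 in KG-1 DMSO, so PADI4 was the higher of the pair with ASLAN003 and the lower with DMSO. In MOLM-14 the ratio spread from 0.18 to 2.52 with ASLAN003 and from 0.30 to 4.57 with DMSO. In MOLM-14, PADI2 read 2.52 ± 1.02 FPKM with ASLAN003 and 1.08 ± 0.63 FPKM with DMSO and did not pass (0.77, adjusted p = 0.0674). It passed without MOLM-14 ASLAN003 replicate 1 (0.97, adjusted p = 0.0337) and after the rescaling (0.83).

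FUT7 encodes the fucosyltransferase that completes sialyl Lewis x, the selectin ligand, and it rose in KG-1 by 0.83 (SE 0.16, limma adjusted p = 0.0013). It read 10.8 ± 1.37 FPKM in KG-1 ASLAN003 and 5.70 ± 1.17 FPKM in KG-1 DMSO, and 37.1 ± 4.34 FPKM in MOLM-14 ASLAN003 and 41.9 ± 4.72 FPKM in MOLM-14 DMSO (SD, n = 3 each). FUT4 over FUT7 was 3.09 ± 0.49 in KG-1 ASLAN003 and 4.57 ± 0.53 in KG-1 DMSO, and 0.846 ± 0.137 in MOLM-14 ASLAN003 and 0.613 ± 0.033 in MOLM-14 DMSO. The ratio was lower with ASLAN003 in KG-1 and higher in MOLM-14, with no overlap between groups in either line. The change of FUT7 itself was larger in KG-1 by 1.00 (SE 0.22, adjusted p = 0.0134).

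**Figure D3:**
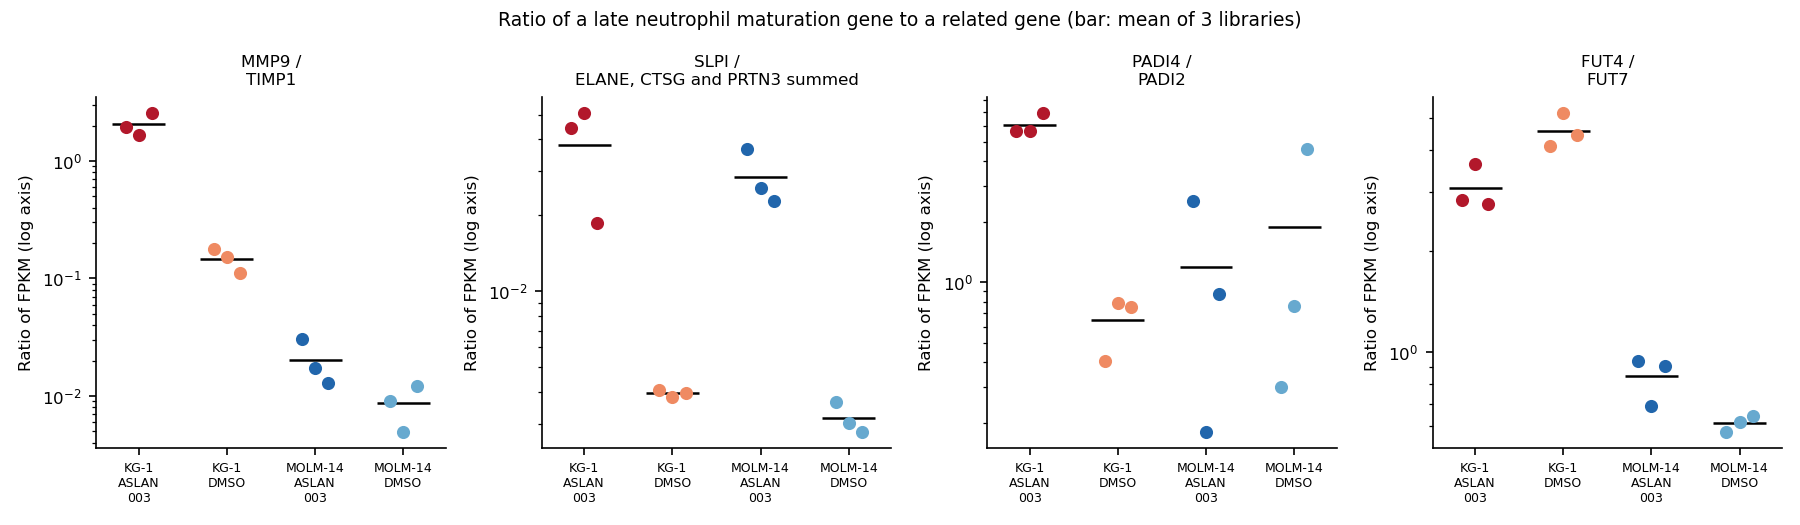
Ratio of FPKM of a late maturation gene to that of a related gene on a log axis, 1 point per library and a bar at the mean, with ASLAN003 left of DMSO within each line. MMP9 over TIMP1 averages 2.04 in KG-1 ASLAN003 and 0.147 in KG-1 DMSO, and SLPI over the proteases is higher with ASLAN003 in both lines.

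CEBPE encodes C/EBP epsilon, the factor needed for specific granules, and it differed by line. It read 127, 117 and 103 FPKM in KG-1 ASLAN003, against 50.2, 50.2 and 44.5 FPKM in KG-1 DMSO, and rose by 1.24 (SE 0.19, limma adjusted p = 0.000291). In MOLM-14 it read 1.36, 0.47 and 0.77 FPKM with ASLAN003, against 0.99, 1.34 and 0.59 FPKM with DMSO, and did not pass (-0.09, adjusted p = 0.812). The change was larger in KG-1 by 1.33 (SE 0.27, adjusted p = 0.00896), which did not pass with a pseudocount of 0.1 (adjusted p = 0.0682) or 0.01 (0.0921). GFI1, a repressor of the monocyte programme, rose in KG-1 by 0.71 (SE 0.13, adjusted p = 0.000992) and CEBPA, an earlier granulocytic factor, fell by 0.34 (SE 0.09, adjusted p = 0.0113). The CEBPA call was lost without KG-1 DMSO replicate 1 (-0.31, adjusted p = 0.0516) and after the rescaling (-0.19, 0.154). In MOLM-14, GFI1 (0.24, adjusted p = 0.241) and CEBPA (0.08, 0.63) did not pass. Nor did the difference between the lines for GFI1 (0.47, adjusted p = 0.128) or CEBPA (-0.42, 0.0571). The GFI1 difference passed without MOLM-14 ASLAN003 replicate 1 (0.61), and that of CEBPA without KG-1 ASLAN003 replicate 1 (-0.49). Of the 12 factors of granulocyte development tested (of 13 named), 7 rose and 3 fell in KG-1, with a median of 0.68. Over all tested genes, 19.4% rose and 14.3% fell, with a median of 0.05. SPI1, which encodes PU.1, rose by 0.98 (adjusted p = 0.000147) and RARA, a retinoic acid receptor, by 1.24 (adjusted p = 0.000261). The other 2 that fell, named after their values were seen, were MYB, a factor of progenitors (-0.31, adjusted p = 0.00846, lost after the rescaling), and IRF8, a monocytic factor (-0.36, adjusted p = 0.0456). The IRF8 call was lost after the rescaling (-0.21, adjusted p = 0.255), with no trend and no robust estimation (0.0792), and without KG-1 ASLAN003 replicate 2 or 3, KG-1 DMSO replicate 1 or 2, or MOLM-14 DMSO replicate 1 or 2 (-0.36 to -0.27).

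In MOLM-14, 5 of the 12 factors rose and none fell, with a median of 0.33: SPI1 (0.65, limma adjusted p = 0.00893), RARA (0.82, 0.0131), KLF6 (0.76, 0.0132), CEBPD (0.86, 0.032) and IRF8 (0.42, 0.0484). Over all tested genes in MOLM-14, 9.69% rose and 3.33% fell. SPI1 and IRF8 were named here after their values were seen. The count was 0 with the line fitted alone, 3 without MOLM-14 ASLAN003 replicate 1 or MOLM-14 DMSO replicate 1, and 2 without MOLM-14 DMSO replicate 2 or 3. RARA lost its call without MOLM-14 DMSO replicate 3 (0.71), KLF6 without MOLM-14 DMSO replicate 2 (0.66), and CEBPD without MOLM-14 ASLAN003 replicate 1 (0.52) or any MOLM-14 DMSO library (0.76 to 0.94), and with equal medians (0.71) or quantile normalization (0.74). IRF8 lost it without any of 10 libraries, all but MOLM-14 ASLAN003 replicate 3 and KG-1 DMSO replicate 3, and with equal medians (0.27), quantile normalization (0.42), other pseudocounts, no filter on low values, or no trend and no robust estimation.

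Other late neutrophil genes were taken from lists named for specific granules, for gelatinase granules and secretory vesicles, and for late receptors. The lists were chosen with earlier results of these data known. Of 54 named, 34 had a row and 32 were tested. Some passed the filter on low values only through the group where they are high, so the counts partly follow from the filter. C5AR1 averaged 11.7 FPKM in KG-1 ASLAN003 and 0.22 FPKM in KG-1 DMSO, and at most 0.20 FPKM in a MOLM-14 group. FCN1, named after its values were seen, averaged 6.22 and 0.31 FPKM in the same KG-1 groups, and at most 0.08 FPKM in a MOLM-14 group. FPR1 averaged 25.6 FPKM in KG-1 ASLAN003 and 0.85 FPKM in KG-1 DMSO, and at most 0.06 FPKM in a MOLM-14 group. In KG-1, 27 of the 32 rose and none fell, with a median log2 change of 1.89, against 0.05 over all tested genes, of which 19.4% rose and 14.3% fell. In MOLM-14, 13 rose and none fell, with a median of 0.60, against 0.08 over all tested genes, of which 9.69% rose and 3.33% fell. The 5 that did not pass in KG-1, named after their values were seen, were CHI3L1 (0.04), ORM1 (-0.65), PTX3 (-0.53), HPSE (0.28) and CD93 (0.23), with adjusted p of 0.897, 0.155, 0.085, 0.471 and 0.266. ORM1 passed as lower without KG-1 DMSO replicate 3 (-1.11), and PTX3 without KG-1 ASLAN003 replicate 3 (-0.74), with equal medians (-0.65), with quantile normalization (-0.69) and with the replicate block (adjusted p = 0.0452). CD93 passed as higher in KG-1 with a pseudocount of 0.1 (0.94, adjusted p = 0.00972) or 0.01 (1.40, 0.00391). LTF, CEACAM8, CD177, CXCR1 and FCGR3B, which define mature neutrophils and their granules, were not analysed here.

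Of the 11 tested genes on the specific granule list, 8 rose in KG-1 and 4 in MOLM-14, against 19.4% and 9.69% of all tested genes. The list was set by name and is not limited to proteins particular to specific granules, BPI and B2M being 2 that are not. Its counts are therefore not counts of specific granule proteins, and the granule that holds each protein was not tested. CYBB, the catalytic subunit of the phagocyte oxidase, read 175 ± 9.66 FPKM in KG-1 ASLAN003 and 8.20 ± 1.27 FPKM in KG-1 DMSO (SD, n = 3 each; 4.26, SE 0.22, limma adjusted p = 1.04e-07). In MOLM-14 it read 1.07 ± 0.37 FPKM with ASLAN003 and 0.50 ± 0.49 FPKM with DMSO and did not pass (adjusted p = 0.153). HP, haptoglobin, rose in KG-1 by 3.82 (adjusted p = 1.66e-08), to 305 ± 64.1 FPKM with ASLAN003, against 20.4 ± 1.10 FPKM with DMSO. It did not pass in MOLM-14 (0.40, adjusted p = 0.111), but did with a pseudocount of 0.1 (0.70, 0.0291) or 0.01 (0.75, 0.0236) and after the rescaling (0.46, 0.0472). LYZ, lysozyme, which monocytes also make, rose in both lines, by 3.19 in KG-1 (adjusted p = 1.37e-08) and 2.32 in MOLM-14 (adjusted p = 6.82e-07). BPI, a bactericidal protein, also rose in both, by 2.92 in KG-1 (adjusted p = 4.76e-07) and 2.07 in MOLM-14 (adjusted p = 5.41e-05). So did B2M, named after its values were seen, by 0.99 in KG-1 (adjusted p = 1.03e-05) and 0.67 in MOLM-14 (adjusted p = 0.00116). ORM1, an acute phase protein, rose in MOLM-14 by 1.58 (adjusted p = 0.00872), but from 0.03 FPKM with DMSO to only 2.09 FPKM with ASLAN003. In KG-1 it averaged 97.25 FPKM with ASLAN003 and 161 FPKM with DMSO. HP and ORM1 each have a near-identical copy, so their values are uncertain where fragments could be split.

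Of the 11 genes of gelatinase granules and secretory vesicles tested, where MMP9 belongs, 9 rose in KG-1 and 1 in MOLM-14. Over all tested genes 19.4% rose in KG-1 and 9.69% in MOLM-14, so the MOLM-14 count lies near that share. FCAR, the receptor for immunoglobulin A, read 94.0 ± 9.47 FPKM in KG-1 ASLAN003 and 6.40 ± 4.37 FPKM in KG-1 DMSO (SD, n = 3 each; 3.83, SE 0.30, limma adjusted p = 1.81e-06) and was listed at 0 in all 6 MOLM-14 libraries. The formyl peptide receptors FPR1 and FPR2 rose in KG-1 by 3.83 (adjusted p = 1.5e-06) and 3.60 (adjusted p = 4.35e-08) and were near 0 in the MOLM-14 group means (FPR1 0.06 FPKM with ASLAN003 and 0.01 FPKM with DMSO, FPR2 0.05 FPKM with ASLAN003 and listed at 0 with DMSO). The MOLM-14 gene was CD93, a receptor of monocytes and endothelium (0.95, adjusted p = 0.0023, but 0.0542 with a pseudocount of 0.01). Of the 10 late receptors tested, 10 rose in KG-1 and 8 in MOLM-14, against 19.4% and 9.69% of all tested genes. ITGAM, which encodes CD11b, rose by 3.97 in KG-1 (adjusted p = 3.02e-07) and 2.18 in MOLM-14 (adjusted p = 0.000184). C5AR1, a complement receptor, rose by 3.38 in KG-1 (adjusted p = 3.75e-07) and LILRA2 by 2.17 (adjusted p = 1.17e-06). In MOLM-14 the largest were PTAFR, the receptor of platelet-activating factor (2.44, adjusted p = 2.32e-05), and TREM1, an activating receptor (2.18, adjusted p = 0.00174).

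**Figure D4:**
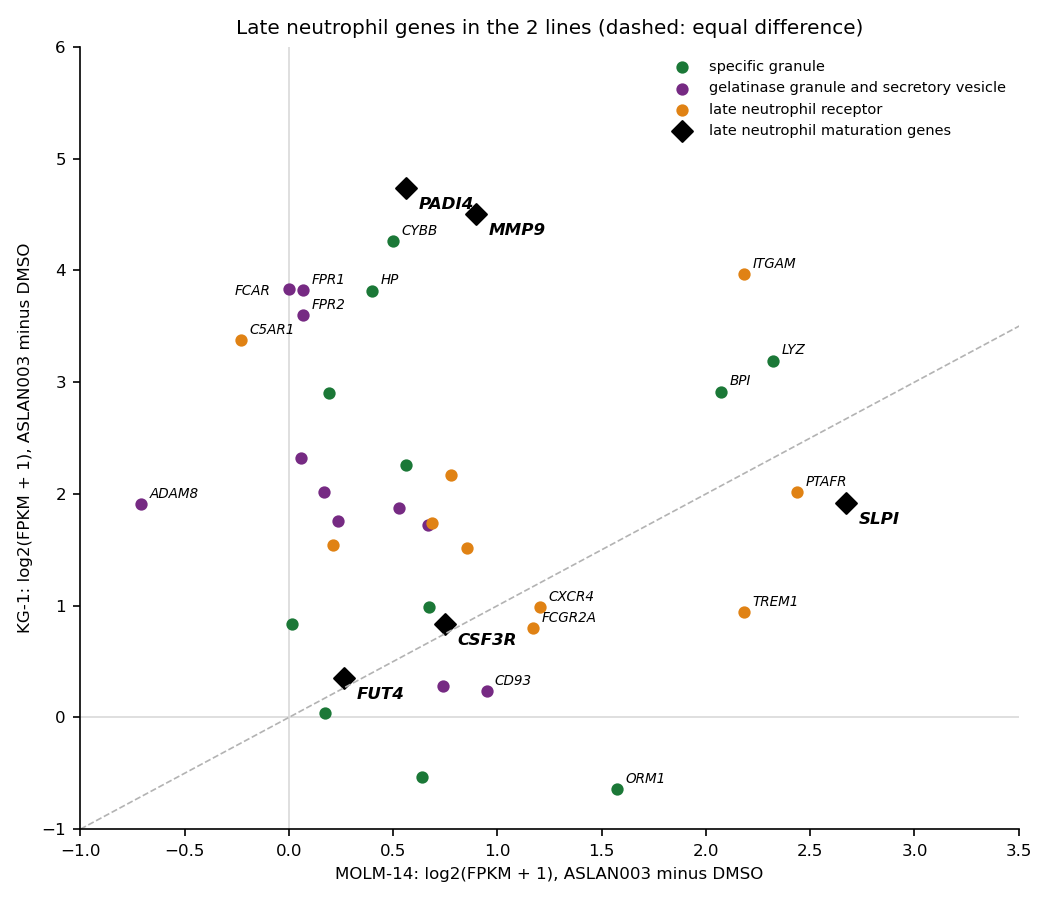
Difference between ASLAN003 and DMSO in KG-1 (vertical) and in MOLM-14 (horizontal) on the log2(FPKM + 1) scale, 1 point per gene, with the 5 late maturation genes as diamonds. PADI4, MMP9, CYBB, HP, FCAR, FPR1, FPR2 and C5AR1 lie at the upper left, above 3 in KG-1 and under 1 in MOLM-14, while SLPI lies right of the dashed line of equal difference.

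The test of the difference in change called 18 of the 32 genes larger in KG-1 and 2 smaller, and 12 did not pass. Of all tested genes it called 5.05% larger and 4.89% smaller. The median difference was 1.19 over the 32 genes, against -0.03 over all tested genes. Genes that passed the filter through KG-1 ASLAN003 alone, such as C5AR1, FPR1 and FCN1, could hardly be called otherwise, so these counts are descriptions. FCAR was listed at 0 throughout MOLM-14, so its difference is its KG-1 change. The 2 called smaller were ORM1 (-2.22, limma adjusted p = 0.0113) and PTX3 (-1.17, adjusted p = 0.035, lost without any of 8 libraries, -1.20 to -0.99). ORM1 averaged at most 2.09 FPKM in a MOLM-14 group, and its difference ran from -7.23 to -1.95 over the alternatives. Without MOLM-14 ASLAN003 replicate 1, 25 of the 32 passed in either direction. FCAR (3.83), CYBB (3.76), FPR1 (3.76), C5AR1 (3.61), FPR2 (3.53) and HP (3.42) had differences near that of MMP9. Their limma adjusted p lay between 5.51e-06 and 0.000264, and given the filter those of C5AR1 and FPR1 support nothing. The differences of ITGAM (1.78), LILRA2 (1.39) and LYZ (0.87) also passed, with adjusted p of 0.00596, 0.00268 and 0.0078. Those of FPR1 and FPR2 did not pass with a pseudocount of 0.01. In DMSO, 14 of the 32 were called higher in KG-1 and 9 lower, where 27.1% of all tested genes were called higher and 22.1% lower, so the count of lower genes lies near that share.

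Of 21 tested genes of G-CSF receptor signalling and related cytokine receptors (of 23 named), 14 rose in KG-1 and 10 in MOLM-14 and none fell. Their medians were 0.80 and 0.50, against 0.05 and 0.08 over all tested genes. Among all tested genes, 19.4% rose and 14.3% fell in KG-1, and 9.69% and 3.33% in MOLM-14. CSF2RB, the shared beta chain of 3 cytokine receptors, rose in KG-1 by 1.85 (limma adjusted p = 9.21e-06) and SOCS1, a feedback inhibitor, by 1.42 (adjusted p = 0.000856). In MOLM-14, PIM1, a kinase induced by cytokines (1.47, adjusted p = 0.0125), CSF2RA, the GM-CSF receptor alpha chain (1.28, adjusted p = 0.00114), and CSF1R, the M-CSF receptor of monocytes (1.12, adjusted p = 0.0332), were the largest. The PIM1 call was lost without MOLM-14 DMSO replicate 1 (1.32), and the CSF1R call without MOLM-14 ASLAN003 replicate 1 (0.71) or any MOLM-14 DMSO library (0.89 to 1.25), with equal medians (0.97), with quantile normalization (0.94) and with the line fitted alone. Without MOLM-14 DMSO replicate 2, 6 of the 21 rose in MOLM-14, and 4 passed with the line fitted alone.

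Over all tested genes, 19.4% rose and 14.3% fell in KG-1, and 9.69% and 3.33% in MOLM-14. Of 8 tested metalloproteinases and their inhibitors other than MMP9 (of 24 named), 4 rose in each line and none fell. In KG-1 they were TIMP1, MMP25, a membrane-anchored enzyme of leukocytes (2.01, limma adjusted p = 0.000374), MMP14 (1.23, adjusted p = 0.00018) and TIMP2 (1.11, adjusted p = 2.66e-05). In MOLM-14 they were TIMP1, TIMP2 (1.12, adjusted p = 0.000214), MMP17 (0.96, adjusted p = 0.00283) and RECK (0.66, adjusted p = 0.0405), and RECK lost its call without any of 9 libraries, all but KG-1 ASLAN003 replicate 3, MOLM-14 ASLAN003 replicate 1 and MOLM-14 DMSO replicate 3 (0.55 to 0.66), and with equal medians (0.51), quantile normalization (0.50) or the line fitted alone.

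Over all tested genes, 19.4% rose and 14.3% fell in KG-1, and 9.69% and 3.33% in MOLM-14. Of 13 tested serine protease inhibitors and neutrophil serine proteases other than SLPI (of 20 named), 7 rose and 4 fell in KG-1. The 4 that fell were the proteases ELANE, CTSG, PRTN3 and, named after its value was seen, PRSS57 (-1.23, limma adjusted p = 7.07e-05). The largest rises were GRN, progranulin, a substrate that SLPI shields from elastase (2.15, adjusted p = 2.41e-06), SERPINB2 (2.09, adjusted p = 0.000235) and SERPINB8 (1.90, adjusted p = 5.06e-06). In MOLM-14, 4 rose, among them SERPINB2 (2.03, adjusted p = 0.00158), SERPINB8 (1.52, adjusted p = 0.000214) and SERPINB1, an inhibitor of elastase inside neutrophils (1.47, adjusted p = 0.000357), and 1 fell, ELANE.

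Of 17 tested genes of fucosylation and sialyl Lewis x synthesis other than FUT4 (of 23 named), 5 rose and 3 fell in KG-1 and 4 rose in MOLM-14. The KG-1 counts lie near the shares over all tested genes, 19.4% higher and 14.3% lower, and those over all genes in MOLM-14 were 9.69% and 3.33%. ST3GAL6, a sialyltransferase of that pathway, rose in both lines, by 1.53 in KG-1 (limma adjusted p = 0.00049) and 1.71 in MOLM-14 (adjusted p = 0.00122). ST3GAL4 fell by 0.84 in KG-1 (adjusted p = 0.000529), with GMDS (-0.68, adjusted p = 0.011) and TSTA3 (-0.53, adjusted p = 0.00317), both of which make the fucose donor and were named after their values were seen. In MOLM-14, GCNT1, which builds the core of the glycan (1.08, adjusted p = 0.0282), and SELPLG, the protein that carries it (0.81, adjusted p = 0.00527), also rose. The GCNT1 call was lost without MOLM-14 ASLAN003 replicate 1 (0.87), MOLM-14 DMSO replicate 2 (1.10) or MOLM-14 DMSO replicate 3 (0.79), and with equal medians (0.93), quantile normalization (0.93) or the line fitted alone.

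Markers of other cell types shifted too, and not all upward. Of the 5 promyelocyte markers, 4 fell in KG-1 and 2 in MOLM-14, and none rose. Among the 2 tested eosinophil, basophil and mast cell markers, 1 fell and none rose in KG-1. The same held for the 2 tested erythroid and megakaryocyte markers. Over all tested genes, 19.4% rose and 14.3% fell in KG-1, and 9.69% and 3.33% in MOLM-14. Summed FPKM of the 5 monocyte and macrophage markers with a row (of 8 named) was 269 to 381 in KG-1 ASLAN003 and 108 to 133 in KG-1 DMSO, and 160 to 226 in MOLM-14 ASLAN003 and 81.5 to 106 in MOLM-14 DMSO. Of these, 4 of 5 rose in KG-1 and 3 of 5 in MOLM-14. CD14, which defines monocytes, averaged 3.34 ± 1.39 FPKM in KG-1 ASLAN003 and 0.33 ± 0.16 FPKM in KG-1 DMSO, and 1.74 ± 1.94 FPKM in MOLM-14 ASLAN003 and 0.38 ± 0.43 FPKM in MOLM-14 DMSO (SD, n = 3 each). The sum of 5 promyelocyte markers was 3922 to 6982 FPKM in KG-1 ASLAN003 and 8505 to 11749 FPKM in KG-1 DMSO, and 3274 to 3625 FPKM in MOLM-14 ASLAN003 and 3422 to 4113 FPKM in MOLM-14 DMSO. The 4 eosinophil, basophil and mast cell markers with a row (of 8) summed to 89.9 to 271 FPKM in KG-1 ASLAN003 and 58.1 to 164 FPKM in KG-1 DMSO, and to 9.63 to 17.3 FPKM in MOLM-14 ASLAN003 and 3.02 to 5.31 FPKM in MOLM-14 DMSO, with CLC and HDC under 1 FPKM in each group. The 3 lymphoid markers with a row (of 6) summed to 41.6 to 44.5 FPKM in KG-1 ASLAN003 and 19.8 to 24.5 FPKM in KG-1 DMSO, and to 67.1 to 104 FPKM in MOLM-14 ASLAN003 and 40.6 to 46.7 FPKM in MOLM-14 DMSO, with CD3D under 1 FPKM. The 2 erythroid and megakaryocyte markers with a row (of 6) summed to at most 3.44 FPKM in any library. The 2 mature neutrophil markers with a row (of 6), CAMP and CXCR2, summed to 33.6 to 49.5 FPKM in KG-1 ASLAN003 and 5.60 to 9.47 FPKM in KG-1 DMSO, and to 5.85 to 11.5 FPKM in MOLM-14 ASLAN003 and 3.18 to 4.74 FPKM in MOLM-14 DMSO. The part of these shifts in the results was not tested.

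Genes with the most similar profile over the 12 libraries were ranked by the root mean square distance between gene-centred log2(FPKM + 1) values, over 13336 genes and with no test. For MMP9 they were HP (0.51), CCL2, a chemokine (0.65), and CYBB (0.69), against a root mean square of 3.25 for the profile of MMP9 itself. For PADI4 they were CYBB (0.54), CCL2 (0.63) and SFTPB, a surfactant protein (0.71), against 2.69. For SLPI they were ST3GAL6 (0.48), OLIG1 (0.52) and NAV3 (0.56), against 1.41. CSF3R lay closest to NHSL2 (0.15), CDH23 (0.16) and ATXN7 (0.17), against 0.48, and FUT4 to RBL2 (0.10), ZNF700 (0.11) and HPS3 (0.11), against 0.21. Among the genes themselves, CSF3R and FUT4 were 0.32 apart and MMP9 and PADI4 0.86 apart, while MMP9 was 2.37 from SLPI and 3.17 from FUT4.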

How the data were processed

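RNA was sequenced from 12 libraries in 4 groups. Per the submitters' processing notes, bcl2fastq 2.17.1.14, STAR 2.4.2a, RSEM 1.2.25 and the hg38 and GRCh38 builds were used, and per the labels' protocols the libraries came from a stranded total RNA kit. No source used here states the annotation or the strand setting of the counting. The authors deposited log2 values, which from their steps of 0.01 FPKM are log2(FPKM + 1), and no read counts. FPKM is relative to the whole library, so abundant transcripts move all others. The 13353 genes that reached 1 FPKM in 3 or more libraries entered limma 3.58.1 (R 4.3.3) on 4 group means with trended, robust moderation, two-sided, adjusted over all of them. The pseudocount of 1 understates changes of low genes. Depth was estimated from the steps of 62 to 108 low values per library. Of these, 79.4% to 85.0% fell within 0.15 fragment of a whole number, against 30% for uniform values. Depth and fragment length were picked within set ranges for the best fit to whole numbers, so this share is no test of them. The labels name triplicates without saying that cultures were separate, so p-values measure library spread that may be technical. Positions and overlaps are from GENCODE 29, which held 99.3% of the identifiers, and promoters from RefSeq, which held 5 of the 7 genes. The fit was also run on simulated data with changes set in KG-1 only and 1 spread per gene in all 4 groups. Since the real groups differ in spread, that run does not check the calls here.

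The genes and lists were chosen with earlier results of these data known. The text names, of each list, up to 3 passed genes with the largest change per line, all partner genes (those acting with a late maturation gene), the 3 most similar genes, and others where marked. One gene that this rule selects is not reported here. Alternatives were other pseudocounts, filters and scalings, each line alone, no trend or robust step, a replicate block, and each library left out. Genes without a row were left out.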

Additional observations from a re-analysis of the deposited data

Results flagged for a closer look

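The change under ASLAN003 differed between the lines for the genes below, by limma's test of the difference itself (change in KG-1 minus change in MOLM-14, log2 scale, n = 3 libraries per group). Among the late maturation genes these were PADI4 (4.17) and MMP9 (3.61). Both were picked with their changes known, so for them the difference is a description. The lists that hold the other genes were also chosen with earlier results of these data known, so for those genes too the difference is a description. Among other late neutrophil genes it was larger in KG-1 for FCAR (3.83), CYBB (3.76), FPR1 (3.76), C5AR1 (3.61), FPR2 (3.53), HP (3.42), CAMP (2.71), MMP25 (1.85), ITGAM (1.78), LILRA2 (1.39) and LYZ (0.87), and for CSF2RB (1.68), CEBPE (1.33), FUT7 (1.00), GRN (0.98) and FLT3 (0.66). It was smaller in KG-1 for ORM1 (-2.22), PTX3 (-1.17), PRSS57 (-1.01), IRF8 (-0.78), MYB (-0.39) and ELANE (-0.79, and -0.38 with quantile normalization, where it did not pass). The CAMP difference did not pass with a pseudocount of 0.1 or 0.01. That of IRF8 did not pass without KG-1 DMSO replicate 1 (-0.69). That of MMP25 did not pass without KG-1 ASLAN003 replicate 1, KG-1 DMSO replicate 2 or 3, or MOLM-14 DMSO replicate 3 (1.74 to 1.89). That of GRN did not pass without KG-1 ASLAN003 replicate 1 or 3, KG-1 DMSO replicate 2 or 3, or MOLM-14 DMSO replicate 2 (0.91 to 0.97). That of MYB did not pass without any of 10 libraries, all but MOLM-14 ASLAN003 replicates 1 and 2, nor under any of the 3 other scalings (-0.38 to -0.33), no trend and no robust estimation, or the replicate block. All ASLAN003 libraries of KG-1 lay above their DMSO libraries for PADI4 and MMP9. The cause of these differences was not tested.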

How the results depend on the processing

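Of the late maturation genes, the 4 calls in KG-1, the 2 on the difference between the lines and the 3 in DMSO held under every alternative run, and so did the SLPI call in MOLM-14. The count of late maturation genes called in MOLM-14 was 2, and 1 with equal medians, quantile normalization, the line fitted alone, or no trend and no robust estimation. With 1 library left out it ran from 1 to 3. Each loss was that of CSF3R, and the cause was not tested. With a pseudocount of 0.1 or 0.01, MMP9 was also called in MOLM-14 (1.54 and 1.67). Other late neutrophil genes called ran from 23 to 28 in KG-1, 10 to 15 in MOLM-14, 14 to 25 on the difference and 19 to 26 in DMSO over all alternatives. Over the same alternatives the list counts in MOLM-14 fell as low as 0 of 5 for the transcription factors, 4 of 10 for G-CSF receptor signalling, 2 of 4 for the metalloproteinases and 2 of 4 for fucosylation, each with the line fitted alone. Signs turned, among values that had not passed, with equal medians for CEBPA (-0.0718) and CTSG (-0.0737) in MOLM-14, CHI3L1 in KG-1 (-0.0855) and FUT4 in DMSO (-0.0514), with quantile normalization for FUT4 in DMSO (-0.0068), and after the rescaling for PRTN3 in MOLM-14 (0.052). With single libraries left out they ran from -0.273 to 0.0685 for CEBPE and -0.0167 to 0.18 for CTSG in MOLM-14, -0.17 to 0.15 for CHI3L1 in KG-1, -0.13 to 0.10 for FUT4 in DMSO, and on the difference from -0.0693 to 0.37 for CSF3R and -0.0083 to 0.22 for FUT4. Same-numbered ASLAN003 and DMSO libraries correlated by -0.00 to 0.10 across genes, so the numbers were not taken as pairs. With a replicate block, 4 late maturation genes were called in KG-1, 2 in MOLM-14, 2 on the difference and 3 in DMSO, as without it, and the calls of TIMP1 and RECK in MOLM-14 were lost. Depth limits PADI4 and MMP9 in MOLM-14, where a value can rest on under 20 fragments.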
